A study of Gallus gallus with 8 samples.

Results

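Among 13009 genes measured in the early endoderm of the chicken yolk sac, 19 had every signal of embryonic days 3 and 4 well above every signal of days 1 and 2. They were chosen from the arrays themselves. A gene entered where the lowest of its 4 signals on days 3 and 4 was at least 100 and at least 2 times the highest of its 4 signals on days 1 and 2, after quantile normalization. Where several probe sets of a gene met this rule, the brightest was taken. These are 0.146% of the genes. Of all probe sets that are not controls 0.065% met the rule, 22 of them with a single gene symbol, and these belonged to ITIH2, CCNG2, ALB, CPS1, LOC769668, PRAP1, ANXA8L1, KIAA0895L, MXRA8, CMBL, ANKMY1, SLC16A4, SLC19A3, SLC16A13, MASP2, IL22RA1, TUBD1, APOV1 and TLX1. The difference between the late and the early days is therefore a property of the choice, and it is described here without a test.

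The yolk sac endoderm is the epithelium outside the embryo that lies against the yolk, takes up yolk lipid and protein, and passes nutrients and freshly made plasma proteins to the embryonic circulation. Much of what it makes is later made by the liver, and textbook accounts list plasma protein synthesis, lipoprotein assembly and nitrogen metabolism among the tasks that both tissues carry out. Several of the 19 genes belong to these tasks, while others encode cell surface proteins, carriers for small solutes and proteins of the cytoskeleton.

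Groups were Gallus gallus yolk sac endoderm of embryonic days 1, 2, 3 and 4, with no strain, genotype or treatment stated and 2 samples of total RNA per day. All eggs had been kept at 38 °C, and the endoderm of all groups had been peeled from the mesoderm after dispase. Each sample pooled tissue taken every 4 h over its day, so a day's value averages stages within it, and the spread between 2 pools is not a spread between embryos. Each sample was labelled by in vitro transcription for 1 Affymetrix Chicken Genome Array, and the number of arrays limits the precision.

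The deposited signals were not on one level, with trimmed means of 76.3 to 169.8 by array, day 1 replicate 2 being the brightest. Beta-actin probes at the 3′ end, set against those at the 5′ end as a check of RNA quality, gave ratios of 2.63 to 4.30 on the arrays of days 3 and 4 and 1.498 to 3.77 on those of days 1 and 2. GAPDH probes gave 1.11 to 1.18 and 1.05 to 1.40 in the same order. The part of RNA quality in the results was not tested. The summed signal of 18 measured yolk sac endoderm markers, among them TTR, APOA1 and CUBN, was 33059 to 37876 (day 1), 52815 to 59314 (day 2), 64489 to 64671 (day 3) and 62405 to 70159 (day 4). Of these RBP4 stayed between 0.879 and 6.55 on all arrays, and SOX17 was lower on 3 of the 4 late arrays than on every early array. The endoderm markers did not rise together. TTR averaged 8681 over days 3 and 4 and 9314 over days 1 and 2, and APOA1 9665 and 9115. AFP went from 6.77 and 2.11 (day 1) to 10704 and 6540 (day 4), and TF from 3293 and 2863 to 10210 and 10519. Markers of other cell types were present too. The sum of 18 primitive erythroid markers was 4724 to 11049 (day 1), 40626 to 57580 (day 2), 31700 to 37758 (day 3) and 16297 to 26398 (day 4). Globins such as HBZ were the highest members of this list on days 2, 3 and 4. CA2 went from 5195 and 2518 (day 1) to 40.1 and 32.1 (day 4), and LMO2 from 1503 and 1095 to 20.2 and 10.2. The summed signal of 19 endothelial markers was 1970 to 2896, 1688 to 4756, 1636 to 2643 and 1523 to 1897 on days 1 to 4. In the same order, 27 mesoderm markers gave 10997 to 11222, 9322 to 26691, 10009 to 17086 and 8790 to 10100. For 9 leukocyte markers it was 250 to 260, 291 to 392, 510 to 516 and 392 to 548. Replicate 1 was the high array of the mesoderm sum on days 2, 3 and 4. FN1 alone, at 7003 to 8996, made up most of this sum except in day 2 replicate 1. The sum therefore understates how far other members parted. COL3A1 gave 4658 in replicate 1 of day 2 but 37.4 in replicate 2, and LUM 2829 but 32.3. Besides FN1, only COL6A2 and MSLN of this list were higher in replicate 2 that day. By day 4 COL3A1 was down to 64.7 and 39.0, and LUM to 45.7 and 2.03. The endothelial sum hid such partings too. ETS1 read 490 and 342 (day 1) and 1040 and 922 (day 4), while CDH5 went from 898 and 317 to 9.61 and 0.446. On day 2 CDH5 gave 1107 in replicate 1 but 9.27 in replicate 2. Of the endothelial list only ETS1, ESAM and CLDN5 were higher in replicate 2 that day. Means of days 3 and 4 were above those of days 1 and 2 for ETS1, PECAM1, ESAM, SOX18 and ROBO4, and below for the others. CD74 was the highest leukocyte marker on every array, with 110 and 123 on day 1 and 309 and 408 on day 4. RUNX1 of that list read 33.6 and 35.8 on day 1 and 3.80 and 11.6 on day 4. For 11 ectoderm markers the sums were 1144 to 1760, 1779 to 2123, 2719 to 3410 and 1780 to 2858, and for 10 neural markers 457 to 699, 136 to 159, 131 to 146 and 123 to 185. GJB6 was the highest ectoderm marker on every array, at 600 to 2957. The ectoderm sum hid partings as well. DLX5 read 250 and 430 on day 1 and 30.0 and 87.2 on day 4. Ectoderm means of days 3 and 4 were below those of days 1 and 2 for DLX5, KRT14, TFAP2A, TFAP2B and GATA3, and above for the others. No marker was at 0 on all arrays, and none of the 19 genes was in a marker list. The part of these cells in the results was not tested, and in bulk tissue more cells of a type and more RNA per cell cannot be told apart.

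In a grouping by function made with earlier results known, plasma protein genes formed the largest group, with 4 of the 19. The share of such genes on the array was not measured. ITIH2 encodes a heavy chain of the inter-alpha-trypsin inhibitor, a plasma protein that binds hyaluronan. Its signals were 76.0 and 44.9 (day 1), 618 and 941 (day 2), 3362 and 3394 (day 3), and 3840 and 2715 (day 4). Albumin, from ALB, the main carrier protein of later plasma, gave 17.8 and 19.6 (day 1), 233 and 309 (day 2), 2262 and 929 (day 3), and 4635 and 671 (day 4). The ALB arrays of a day stayed close until day 2 and then parted, and on days 3 and 4 replicate 1 was the higher array.

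The other plasma protein genes were MASP2 and APOV1. MASP2 encodes a serine protease that starts the lectin pathway of complement, and its signals were 23.5 and 19.2 (day 1), 73.2 and 130 (day 2), 438 and 529 (day 3), and 388 and 324 (day 4). APOV1 encodes apovitellenin, a lipoprotein component that the laying hen's liver secretes towards the yolk. It read 4.95 and 6.53 (day 1), 41.9 and 37.6 (day 2), 201 and 291 (day 3), and 225 and 259 (day 4). Of the 19 genes APOV1 had the widest gap between its lowest late and its highest early signal, a ratio of 4.80.

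**Figure D1:**
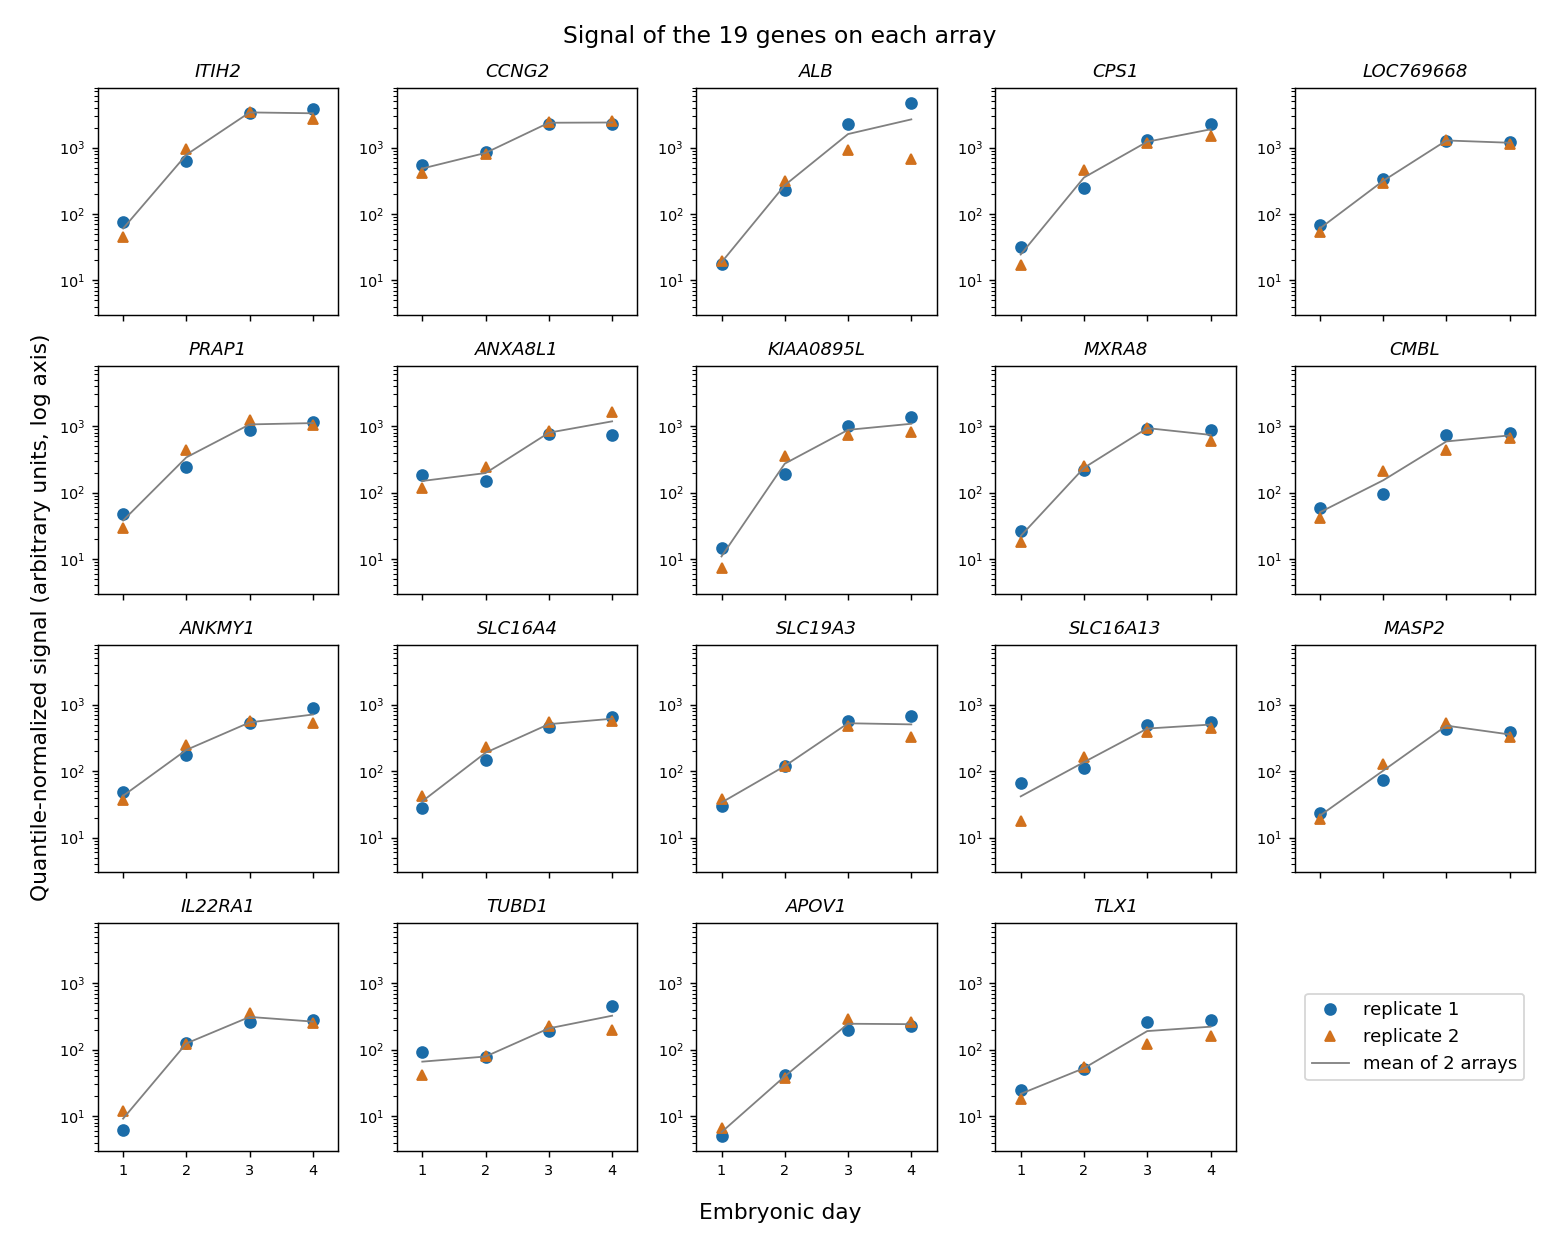
Quantile-normalized signal (log axis) of each of the 19 genes on the 8 arrays by embryonic day, with circles for replicate 1, triangles for replicate 2 and a line through the day means. Most genes climbed from day 1 to day 2 and again to day 3, ANXA8L1 and TUBD1 were nearly flat until day 2, and the ALB replicates parted on days 3 and 4.

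Enzymes and epithelial lipid handling were represented by CPS1, CMBL and PRAP1. CPS1 encodes carbamoyl phosphate synthetase, the mitochondrial enzyme that in mammals commits ammonia to the urea cycle. Its signals were 32.1 and 17.0 (day 1), 243 and 465 (day 2), 1285 and 1160 (day 3), and 2267 and 1490 (day 4). CMBL encodes a hydrolase that in humans activates an ester prodrug. It gave 59.2 and 41.8 (day 1), 94.2 and 212 (day 2), 733 and 443 (day 3), and 789 and 660.0 (day 4). PRAP1, whose mammalian product is a secreted protein of the gut lining that binds lipid, had 46.7 and 29.1 (day 1), 242 and 435 (day 2), 877 and 1244 (day 3), and 1169 and 1052 (day 4). CPS1, PRAP1 and CMBL kept the arrays of day 2 above those of day 1, as did 25.3% of all probe sets above the filter. For each of these genes the day 2 arrays differed from each other by more than the day 1 arrays did. The SD on day 2 and day 1 was 157 and 10.7 for CPS1, 136 and 12.5 for PRAP1, and 83.0 and 12.3 for CMBL.

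Carriers of the SLC families made up 3 of the 19. SLC19A3 encodes a thiamine transporter, and its signals were 29.8 and 37.5 (day 1), 119 and 119 (day 2), 568 and 483 (day 3), and 684 and 326 (day 4). SLC16A4 and SLC16A13 belong to the monocarboxylate transporter family. SLC16A4 read 27.4 and 42.9 (day 1), 146 and 232 (day 2), 468 and 550.2 (day 3), and 658 and 571 (day 4). SLC16A13 read 65.8 and 17.5 (day 1), 111 and 162 (day 2), 492 and 382 (day 3), and 551 and 452 (day 4). All 3 carriers kept the arrays of day 2 above those of day 1, as did 25.3% of all probe sets above the filter. Relative to the mean of a day, their spread was widest for SLC16A13 on day 1.

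At the cell surface, MXRA8 encodes an immunoglobulin-like membrane protein and IL22RA1 the subunit of the interleukin-22 receptor that epithelial cells carry. MXRA8 had signals of 26.5 and 17.8 (day 1), 218 and 253 (day 2), 919 and 947 (day 3), and 888 and 587 (day 4). IL22RA1 had 6.19 and 12.1 (day 1), 125 and 123 (day 2), 265 and 357 (day 3), and 278 and 251 (day 4). For both genes all day 2 signals were far above the day 1 signals. ANXA8L1 encodes an annexin, a protein that binds membranes in the presence of calcium. Its signals of 181 and 118 on day 1 overlapped with 147 and 246 on day 2, and the arrays of day 3 gave 748 and 843 and those of day 4 gave 731 and 1627.

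CCNG2 encodes cyclin G2, an unconventional cyclin associated with cell cycle arrest. Its signals were 551 and 416 (day 1), 851 and 809 (day 2), 2293 and 2429 (day 3), and 2259 and 2504 (day 4). TLX1, a homeobox transcription factor that the mouse needs to form a spleen, gave 24.9 and 18.4 (day 1), 50.9 and 54.4 (day 2), 258 and 123 (day 3), and 283 and 160.3 (day 4). TUBD1 encodes delta-tubulin, a protein of the centriole, and gave 91.1 and 41.0 (day 1), 78.6 and 79.2 (day 2), 191 and 228 (day 3), and 452 and 197 (day 4). The day 2 arrays of TUBD1 lay between those of day 1.

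KIAA0895L, whose human counterpart encodes an enzyme that removes the last tyrosine of alpha-tubulin, gave 14.4 and 7.43 (day 1), 193 and 352 (day 2), 1020.1 and 736 (day 3), and 1362 and 807 (day 4). ANKMY1, named for its ankyrin repeats and MYND zinc finger, gave 48.3 and 36.7 (day 1), 173 and 243 (day 2), 521 and 560 (day 3), and 883 and 538 (day 4). The uncharacterized protein-coding gene LOC769668 gave 68.4 and 53.0 (day 1), 333 and 297 (day 2), 1239 and 1316 (day 3), and 1225 and 1135 (day 4). The KIAA0895L replicates spread more than those of LOC769668 on days 2, 3 and 4.

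The working name of these genes, late onset, is a loose one. Of the 19, 13 were already called higher on day 2 than on day 1 (8 to 14 genes over the other settings tried). A call does not mark onset, since ALB was not called although it averaged 271 on day 2 and 18.7 on day 1. The contrast of day 2 with day 1 lies within the early days. The rule sets an upper bound on those signals but not the order of the 2 days. It can still favour genes whose replicates lie close, and the fit takes its spread from all 8 arrays. All 19 also had late signals of at least 100, while the probe sets they are set against reach down to a mean of 9.97. The count called is therefore not free of the choice. In limma, fitted to log2(signal + 16) of all 23063 probe sets above the filter, with Benjamini-Hochberg adjustment at 0.05, 3.7% of the probe sets were called higher on day 2 and 2.03% lower. That balance turned with the scaling, since on the deposited values 371 probe sets (1.61%) were higher and 860 (3.73%) lower, and 10 of the 19 genes were called higher. Without day 1 replicate 2 the fit called 183 probe sets higher and 40 lower. None of the 19 genes was called lower (0 also at an unadjusted p under 0.05, against 17 higher, where 10.8% of the probe sets were higher and 11.5% lower). The arrays of day 2 lay above both arrays of day 1 for 17 of the 19, the exceptions being ANXA8L1 and TUBD1, while 25.3% of all probe sets were separated that way. The median difference of the 19 was 1.93 on the log2 scale, against -0.02 over all probe sets tested, and on the deposited values 1.51 against -0.42.

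Among the larger rises into day 2 were those of ITIH2, KIAA0895L and CPS1, whose order depends on the 16 added before the logarithm. ITIH2 averaged 780 ± 228 on day 2 and 60.4 ± 22.0 on day 1 (SD, n = 2 each), a log2 difference of 3.38 ± 0.28 (SE, limma adjusted p = 0.00064). KIAA0895L averaged 272 ± 112 on day 2 and 10.9 ± 4.94 on day 1, a difference of 3.38 ± 0.36 (limma adjusted p = 0.0016). For CPS1 the means were 354 ± 157 on day 2 and 24.5 ± 10.7 on day 1, with a difference of 3.15 ± 0.34 (limma adjusted p = 0.0018). Together with MXRA8 (2.72), PRAP1 (2.68), IL22RA1 (2.49) and LOC769668 (2.12), these made 7 genes that were called under each of the 19 other settings tried. IL22RA1 and APOV1 had day 1 means of 9.16 and 5.74, below the filter signal of 9.97, and 1 of the KIAA0895L arrays of day 1 was below it too. The size of these differences is therefore only roughly known. Over the settings KIAA0895L ranged from 2.13 to 4.52, IL22RA1 from 1.36 to 3.69, APOV1 from 0.57 to 2.60, ALB from 2.01 to 3.77, CPS1 from 2.19 to 3.79 and MXRA8 from 1.80 to 3.37, in each case with no change of sign.

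The remaining 5 calls among the 13, besides APOV1, were SLC16A4 (1.99), ANKMY1 (1.93), MASP2 (1.61), SLC19A3 (1.45) and CCNG2 (0.77). They were less stable, but not equally so. Of the 19 other settings ANKMY1 and SLC16A4 kept their calls in 18, MASP2 in 15, APOV1 in 14 and SLC19A3 in 10. On the deposited values SLC19A3 had a limma adjusted p of 0.13. Without day 1 replicate 2 only 8 genes were called, and the calls of ANKMY1, MASP2, SLC19A3, APOV1 and CCNG2 were lost. SLC16A4 was lost without day 1 replicate 1 (limma adjusted p = 0.057). CCNG2, with an adjusted p of 0.044, kept its call in 6 of the 19 settings and had a limma adjusted p of 0.45 on the deposited values and 0.067 with the replicate number as a block.

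The 6 genes not called between day 2 and day 1 were ALB, SLC16A13, CMBL, TLX1, ANXA8L1 and TUBD1. ALB had means of 271 ± 53.8 on day 2 and 18.7 ± 1.23 on day 1 (SD, n = 2 each), a log2 difference of 3.03 with a 95% interval of 1.31 to 4.76 (limma adjusted p = 0.054). The fit takes its spread from all days, and the ALB arrays of day 4 were far apart. With days 1 and 2 alone in the fit the limma adjusted p was 0.0057, and with the replicate number as a block it was 0.041. It was 0.15 with 64 added before the logarithm, 0.094 without the filter and 0.067 without the intensity trend. Without day 4 replicate 1 the difference was 3.07, and without day 4 replicate 2 it was 3.04. ALB was called in 8 of the 19 other settings. SLC16A13 (1.52, interval 0.61 to 2.44) and CMBL (1.26, interval 0.40 to 2.13) missed the threshold with adjusted p of 0.064 and 0.091 in limma. ANXA8L1 (0.35, interval -0.55 to 1.24) and TUBD1 (0.28, interval -0.66 to 1.22) had intervals that reached across 0. These intervals do not show that the days were equal.

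**Figure D2:**
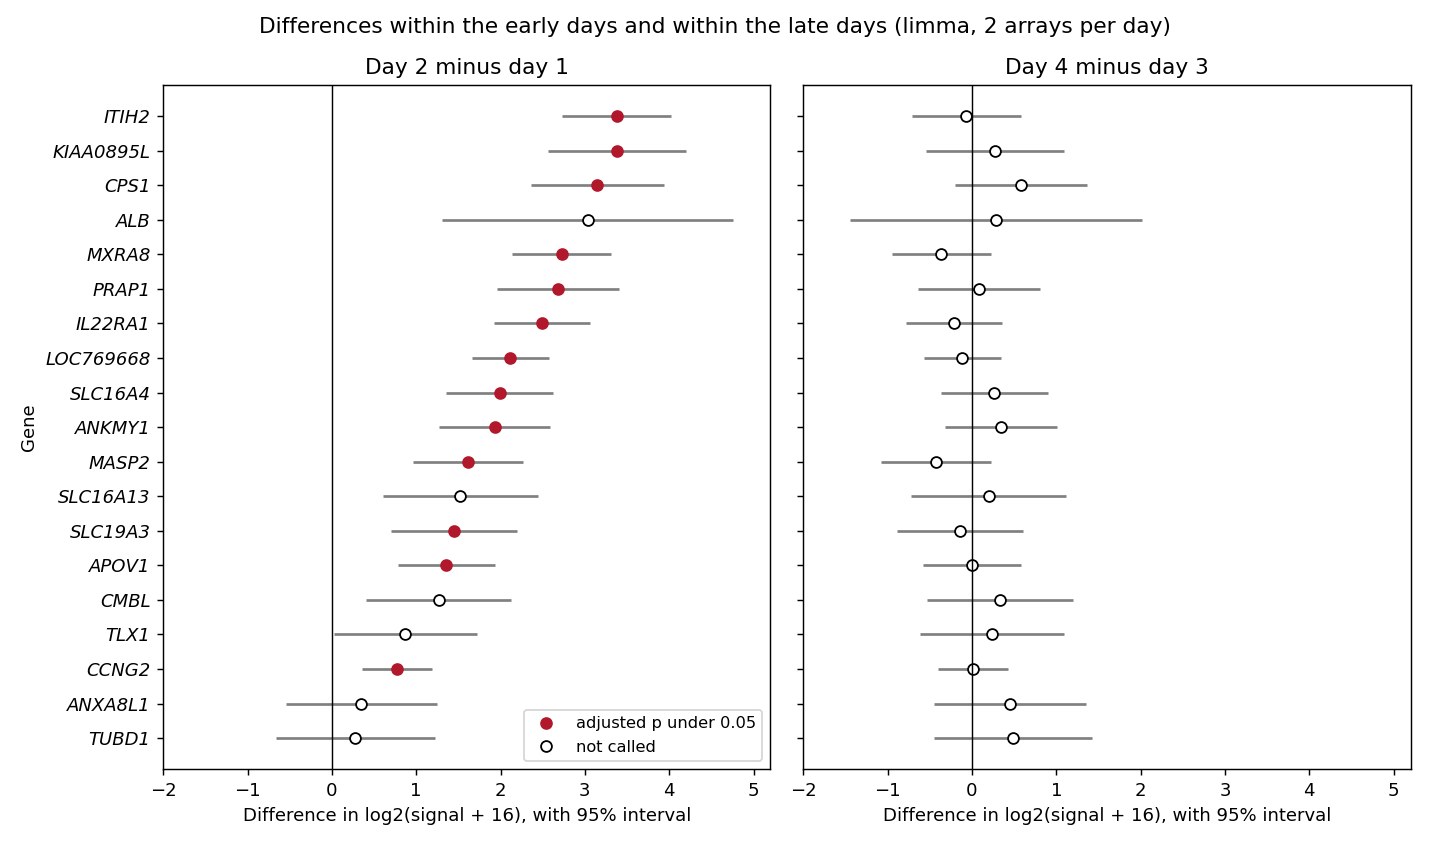
Differences in log2(signal + 16) for the 19 genes, day 2 minus day 1 on the left and day 4 minus day 3 on the right, with 95% intervals from limma (2 arrays per day) and filled points for an adjusted p under 0.05. On the left 13 points are filled and all lie to the right of 0, while on the right none is filled and all 19 intervals span 0.

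After day 3 none of the 19 genes was called in either direction. The rule bounded the signals of both days from below. A gene still low on day 3, or fallen back to its early level by day 4, could not be among the 19. The absence of such large changes is therefore a property of the choice. In limma 0 genes were higher on day 4 and 0 were lower, as for all probe sets tested (0% called). At an unadjusted p under 0.05 it was again 0 of the 19, against 2.97% of all probe sets higher and 3.46% lower. The difference was above 0 for 12 genes and below 0 for 7, with a median of 0.20 against 0.01 over all probe sets. The arrays of day 4 lay above both arrays of day 3 for 2 genes and below both for 3, where 18.3% and 18.1% of all probe sets were separated in these ways.

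The intervals show what the fit could resolve between days 3 and 4, with a spread taken from all 8 arrays. The narrowest was that of CCNG2, which averaged 2381 ± 173 on day 4 and 2361 ± 96.6 on day 3 (SD, n = 2 each), a log2 difference of 0.01 with a 95% interval of -0.40 to 0.42. ITIH2 averaged 3277 ± 795 on day 4 and 3378 ± 22.6 on day 3, a difference of -0.06 (interval -0.71 to 0.58). CPS1 had the largest positive difference of the 19, 0.58 (interval -0.20 to 1.37), with means of 1878 ± 549 on day 4 and 1223 ± 88.4 on day 3. MASP2 had the most negative, -0.42 (interval -1.08 to 0.23), with 356 ± 45.0 on day 4 and 483 ± 65.0 on day 3. The widest interval was that of ALB, -1.44 to 2.01. Replicate 1 was the higher array for 16 of the 19 genes on day 4 and for 7 on day 3.

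The step into day 3, which the rule used, ranged from 1.21 for IL22RA1 to 2.37 for ALB on the log2 scale, with a median of 1.81 (0.01 over all probe sets). It was the larger step for 9 genes, and the step from day 1 to day 2 was the larger for the other 10. With 1 added in place of 16 these counts were 7 and 12, and with 64 they were 11 and 8. By day 2 the genes had covered a median of 53.3% of their log2 distance between day 1 and day 4, or 55.4% with 1 added and 44.7% with 64. IL22RA1 had covered the most, 71.4%, followed by MXRA8 with 63.6% and KIAA0895L with 63.5%. ANXA8L1 had covered 12.6% and TUBD1 13.9%, and TLX1, CCNG2, CMBL and APOV1 33.4% to 38.1%. The plasma proteins were spread over this range, with ITIH2 at 62.2%, ALB at 53.4%, MASP2 at 48.7% and APOV1 at 38.1%. The APOV1 share was 50.3% with 1 added and 26.9% with 64.

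**Figure D3:**
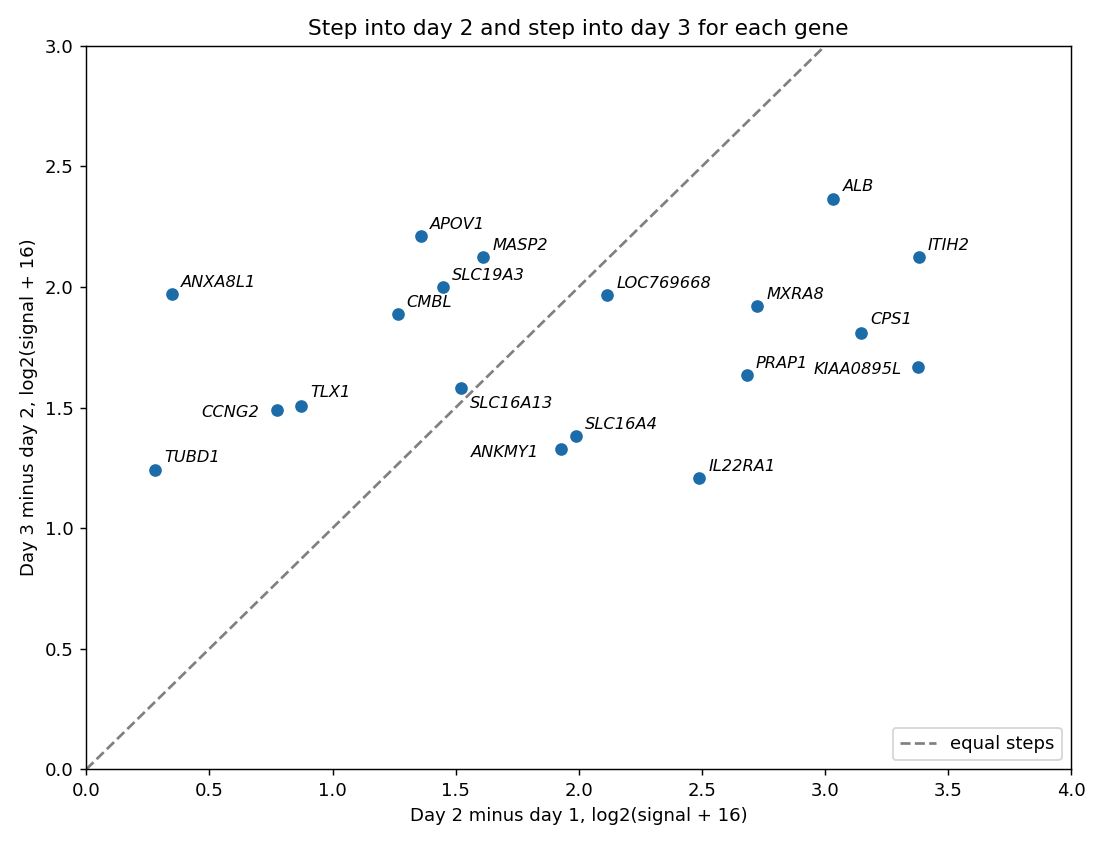
For each of the 19 genes, the difference between day 2 and day 1 (horizontal) against that between day 3 and day 2 (vertical), both in log2(signal + 16), with a dashed line for equal steps. Steps into day 3 lie between 1.21 and 2.37, while steps into day 2 run from 0.28 for TUBD1 to 3.38 for ITIH2, and 10 genes lie below the line.

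How close a gene lay to the rule mattered for who was counted. Just inside the ratio of 2 were IL22RA1 (2.00), SLC16A4 (2.02) and PRAP1 (2.02), and just outside it SULT1B (1.93), ZFAND4 (1.92) and PLA2G12B (1.92), for a sulfotransferase, a zinc finger protein and a member of the phospholipase family. The lowest late signals inside the rule were those of TLX1 (123), TUBD1 (191) and APOV1 (201), and the nearest below 100 that met the ratio were those of VDHAP (60.1), HNRNPD (58.5) and KBTBD11 (56.2). Day 2 replicate 2 held the highest early signal for 14 of the 19 genes, and day 4 replicate 2 the lowest late signal for 7. Without day 2 replicate 2 the rule found 122 genes, 18 of the 19 among them, and without day 4 replicate 2 it found 50, including all 19. Leaving out an array removes a condition of the rule. Apart from changes in the normalization the count could therefore not fall, and these counts do not test stability. On the deposited signals 16 of the 19 met the rule, and IL22RA1, TUBD1 and TLX1 had ratios of 1.49, 1.61 and 1.88.

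**Figure D4:**
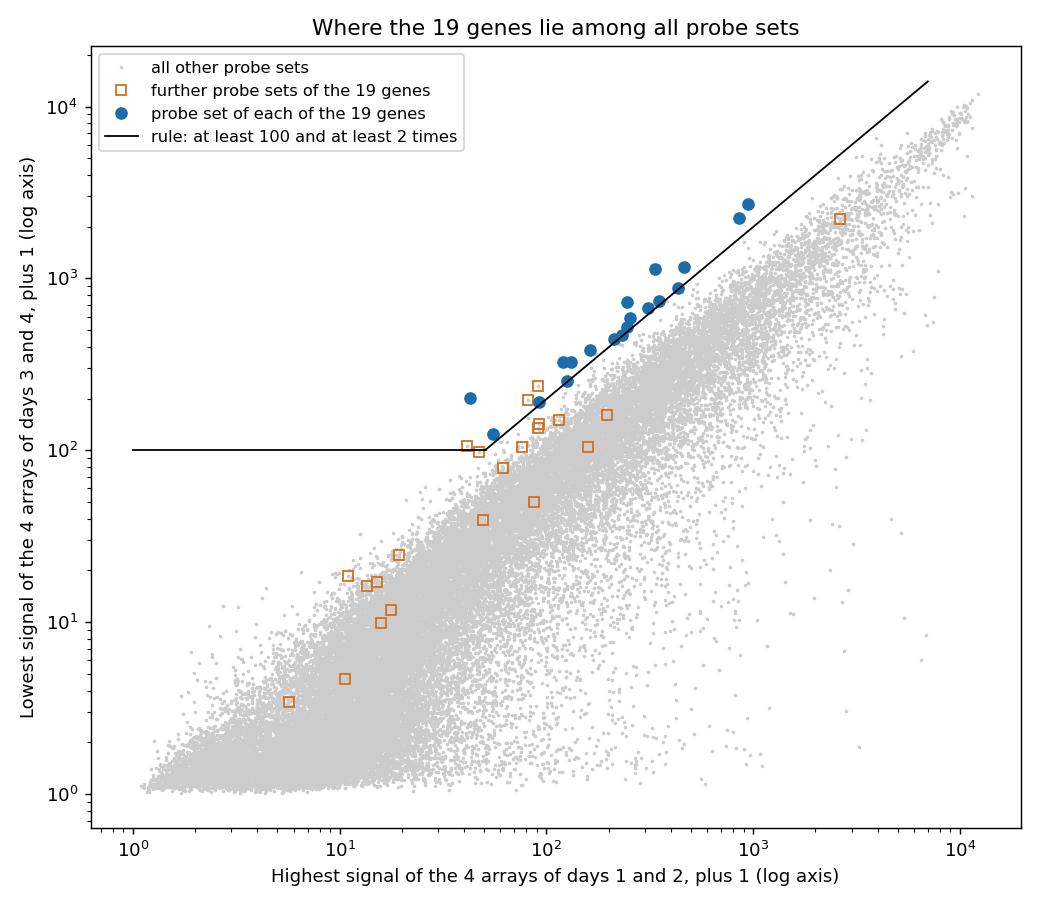
Lowest signal of days 3 and 4 against highest signal of days 1 and 2 for all probe sets that are not controls (grey), both plus 1 on log axes, with the bounds of the rule as black lines. Filled circles are the probe sets of the 19 genes and open squares the 22 further probe sets of the same genes, most of which lie below the bounds, the highest square being that of CCNG2.

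Further probe sets of the same genes gave a mixed picture. Between them 11 genes had 22 more probe sets, of which 3 also met the rule, for MASP2, SLC16A4 and SLC19A3. Of the 21 above the filter, 13 had every late array above every early array and 8 did not, where 8.49% of all probe sets were so separated. This comparison repeats the contrast of the rule on the same arrays and supports nothing further. Between day 2 and day 1 limma called 3 of these 21 probe sets higher, of MASP2, SLC16A4 and CCNG2, and 0 lower. Of all probe sets tested 3.7% were called higher and 2.03% lower. MASP2 and SLC16A4 each had another probe set that was higher on day 2 than on day 1, by 1.65 (limma adjusted p = 0.0050) and 1.43 (limma adjusted p = 0.014). The other KIAA0895L probe set, at 1.24, was not called (limma adjusted p = 0.075). Nor were that of SLC19A3, at 0.80 (limma adjusted p = 0.12), and the next of MASP2, at 1.05 (limma adjusted p = 0.14). Those of SLC16A13, at 0.49 (limma adjusted p = 0.28), and TLX1, at 0.06 (limma adjusted p = 0.93), were not called either. The 3 others of CPS1, at 0.30 to 0.46, were not called (limma adjusted p of 0.30 to 0.71). They read only 0.924 to 18.3 on days 1 and 2, where the 16 added before the logarithm draws differences towards 0. The other probe set of ANXA8L1 read 35.6 and 28.6 (day 1), 35.2 and 46.2 (day 2), 177 and 260 (day 3), and 97.3 and 314 (day 4), with the arrays of days 1 and 2 overlapping as in the brighter one.

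For CCNG2, TUBD1 and ANKMY1 the probe sets disagreed on timing. CCNG2 was the only gene with a probe set brighter than the one chosen, and this one read 902 and 719 (day 1), 1910 and 2626 (day 2), 2205 and 3278 (day 3), and 3597 and 3620 (day 4). There the arrays of day 2 overlapped with those of day 3, and the difference between day 2 and day 1 was 1.46 (limma adjusted p = 0.0098). Of the other 4 TUBD1 probe sets 2 had all late arrays above the early ones, and 1 had all early arrays above the late ones, with 86.3 and 71.3 (day 1), 63.9 and 69.7 (day 2), 56.8 and 55.6 (day 3), and 48.8 and 54.3 (day 4). The next brightest ANKMY1 probe set read 85.1 and 84.3 (day 1), 108 and 195 (day 2), 159 and 192 (day 3), and 219.9 and 174 (day 4), so that its late and early arrays overlapped. Which transcripts each of these probe sets reports is not given in the sources used here.

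Only 5 of the 19 genes stood in the pathway lists examined, ALB and ITIH2 among serum proteins, MASP2 in complement, APOV1 in lipid handling and CPS1 in urea cycle and amino acid breakdown. Many other genes of these lists were higher on day 2 than on day 1. With each gene taken at its brightest probe set, 5.26% of 10541 genes were higher and 2.72% lower, while on the deposited values 2.37% were higher and 4.59% lower. The counts by list that follow are of genes above the filter. Under it were 5 serum protein, 3 complement, 4 lipid, 3 urea cycle and amino acid breakdown, and 12 transporter genes of the array. Among 23 serum protein genes 14 were higher and 0 lower, including AFP, TF and PLG, with a median log2 difference of 2.32. Of 14 complement genes 4 were higher, C1R, C8B, C8G and MASP2, and 0 were lower, with a median of 0.91. In lipid uptake, synthesis and lipoproteins 18 of 47 were higher, among them APOB, CUBN and SCARB1, and FABP5 and ELOVL5 were lower, with a median of 0.65. In urea cycle and amino acid breakdown 13 of 28 were higher, OTC and ASS1 of the urea cycle with them, and ARG2 was lower, with a median of 0.91. Of 60 plasma membrane transporters 13 were higher and 4 lower, and that list did not hold SLC16A4, SLC16A13 or SLC19A3. No gene of these lists was called between day 4 and day 3. Of 16 erythroid markers above the filter, 8 were higher on day 2 and 0 lower, with HBZ and SLC4A1 among the 8. CA2 of the same list read 5195 and 2518 on day 1 and 1981 and 151 on day 2, and was not called. The part of these markers was not tested.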

How the data were processed

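Transcript levels were measured in 8 pooled samples of chicken yolk sac endoderm, 2 for each of embryonic days 1, 2, 3 and 4. The authors deposited signal intensities on a linear scale, made with MAS5 per the submitters' processing notes; no version is named in the notes, and the target used for scaling is not given in the sources used here. Of 38535 probe sets 96 controls were set aside, and 27168 of the others carried 1 gene symbol in the platform annotation, for 13009 genes. RefSeq's chicken gene table (assembly GRCg7b) held all 19 members under the same symbol.

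The 8 columns were quantile-normalized, because the rule uses those values. The members, the gene lists and the functional groups were chosen with earlier results of these data known. Probe sets with a mean above the 40th percentile (9.97) were kept, 23063 in all, and all 19 members passed. Comparisons of days used limma 3.58.1 (R 4.3.3) on log2(signal + 16), with an intensity trend, all 8 arrays in 1 fit (4 residual and 4.67 prior degrees of freedom) and Benjamini-Hochberg adjustment at 0.05. The code was tested on simulated arrays. Lists took each gene's brightest probe set. Of 17 pathway lists, the 4 that held members and the transporters are reported, besides 7 marker lists. All 19 members are named with values, and genes at the thresholds are the 3 nearest on each side. Genes named from lists were picked after their values were seen. Alternatives were the normalization, pseudocount, filter, trend, samples in the fit, a replicate block, the thresholds of the rule and each array left out. The scaling of the background and the pseudocount behind the steps and shares were varied after seeing the data. Figures were drawn with matplotlib 3.10.9.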

Additional observations from a re-analysis of the deposited data

How the results depend on the processing

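The count of genes higher on day 2 than on day 1, 13 as reported, was 10 to 14 under the other normalizations, pseudocounts, filters, trends and sample choices, 13 with a replicate block (ALB gained a call and CCNG2 lost it) and 8 to 14 with each array left out in turn, the lowest without day 1 replicate 2. The count lower on day 2 stayed at 0 under these settings, as did the counts for day 4 against day 3 in both directions (0 to 0 with each array left out). The number of genes meeting the rule, 19, was 59 with a ratio of at least 1.5 and 2 with at least 3. With each array left out, which removes a condition of the rule, it was 19 to 122. It was 16 on deposited values, 19 with controls removed first, 23 with a lowest late signal of 50, 17 with 200, and 18 with the brightest probe set of each gene taken first. The sample titles do not say whether the replicate numbers pair the samples. The replicate differences of 2 days correlated at -0.11 to 0.38 over the 6 pairs of days, highest for days 2 and 3. These correlations cannot settle whether samples were paired. As days 1 and 2 gave -0.11, a block with the day 1 numbers crossed was added after seeing the data, and it gave 14 higher and 0 lower on day 2. No called difference changed sign. The cause of these changes was not tested.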

Other observations

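KIAA0895L and LOC769668 lie near each other in the chicken reference table of assembly GRCg7b, with 2 protein-coding genes between them, LCAT and LOC415661. LCAT encodes the enzyme that esterifies cholesterol on lipoproteins. Its signals were 1075 and 681 (day 1), 2000 and 3611 (day 2), 4808 and 4887 (day 3), and 5000 and 3996 (day 4), and its log2 difference between day 2 and day 1 was 1.63 (limma adjusted p = 0.016). LOC415661 read 15.3 and 10.6 (day 1), 84.4 and 181 (day 2), 160 and 128 (day 3), and 638 and 157 (day 4), with a difference between day 2 and day 1 of 2.29 that missed the threshold (limma adjusted p = 0.052). All arrays of days 3 and 4 were above those of days 1 and 2 for LCAT and not for LOC415661. These neighbours were looked at after the members' values were seen.

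Besides the named genes, 3 probe sets with no gene symbol met the same rule. The brightest gave 17.8 and 6.77 (day 1), 235 and 349 (day 2), 1835 and 1202 (day 3), and 2500 and 1792 (day 4). Its ratio of the lowest late to the highest early signal, 3.44, was above that of all the 19 genes but APOV1. The other 2 had ratios of 2.12 and 2.43.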
